A study of Homo sapiens with 10 samples.

Results

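ZNF274 and 9 genes of the H3K9me3 machinery around it were followed by RNA-seq in all 10 libraries of the series. The genes were taken by symbol: ZNF274, TRIM28 (the KAP1 protein), SETDB1, ATF7IP, ATRX, SUV39H1, SUV39H2 and the HP1 genes CBX1, CBX3 and CBX5. These are 10 of 19665 genes listed in both count tables, of 22750 genes listed for HEK293T cells and 20965 for neural progenitor cells (NPCs). All 10 passed the filter on low counts in every comparison. HEK293T is a line from human embryonic kidney, and there were 3 WT libraries (S15, S16, S17) and 3 ZNF274KO libraries (S18, S19, S20). The NPCs were made from H1 human embryonic stem cells through embryoid bodies, with 2 WT libraries (S3, S5) and 2 ZNF274KO libraries (S1, S2). ZNF274 was deleted with Cas9 and a pair of guides on either side of the gene, followed by puromycin, and KO cells grew from single sorted HEK293T cells or picked stem cell colonies. The submitters describe the replicates as separate clones, the labels do not say which clone each library came from, and p-values measure the spread between these libraries. The treatment of the WT cells beyond their genotype is not given in the sources used here.

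KRAB zinc finger proteins bind DNA through their fingers and recruit TRIM28 through the KRAB domain. TRIM28 in turn brings SETDB1, which methylates lysine 9 of histone H3, and ATF7IP, which binds SETDB1 and keeps it in the nucleus. H3K9me3 is also written by SUV39H1 and SUV39H2 and is bound by the HP1 proteins, and ATRX places histone H3.3 in such chromatin with its partner DAXX. ZNF274 carries a SCAN domain besides KRAB domains, and is known for binding the 3' ends of zinc finger genes. The question here was at what level these genes were expressed in the cell types, and which of them changed when ZNF274 was deleted.

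The libraries held 21421013 to 32285876 counts on genes in HEK293T cells and 18621266 to 23035490 in NPCs. Levels are given as CPM, the counts scaled to a common total, on library sizes normalized by TMM over all 10 libraries, and levels of different genes are compared only as CPM per kb of annotated exon. Among the HEK293T libraries, KO library S18 stood apart across the genome. In S18, 16.7% of the genes outside chromosome 19 with a mean of at least 1 CPM lay more than 0.5 below the WT mean on the log2 scale, against 5.44% in S19 and 2.46% in S20. KO libraries S18 and S19 also stood apart at the end of chromosome 19, where TRIM28 lies, and results that rest on them are given with and without them. The labelled cell types were checked on markers. WT NPCs had SOX2 at 220 to 228 CPM and PAX6 at 78.6 to 88.4. In KO NPCs SOX2 was at 12.9 to 21.5 CPM and SOX1 at 1 and 2 counts, against 154 and 989 in WT NPCs. The summed level of 10 neural progenitor markers was 2950 to 3966 CPM in WT and 3268 to 3292 in KO NPCs, most of it NES, and 2 of the 10 were at or below 3 counts in both KO libraries. In KO NPCs the summed level of 10 mesenchymal markers was 5377 to 6141 CPM against 1332 to 2231 in WT NPCs, with COL1A1 at 3486 to 3573 against 559 to 647 and COL1A2 at a log2 FC of 0.073 that did not pass. In HEK293T cells the kidney marker PAX8 had at most 2 counts in a library, and 3 of 9 mesenchymal markers in the table were at or below 3 counts in every library. RNA of a culture was measured as a whole, so that fewer cells of a type and less RNA per cell cannot be told apart.

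The sequences just before the starts of 8 of the 10 genes are in a RefSeq table of promoters, 250 bases before to 50 bases after the start, in GRCh38.p14. TRIM28 and ATRX were not matched. Of genes with several starts the most upstream was taken. The promoters of ZNF274, of SUV39H2 and CBX1, which fell in KO NPCs, of CBX3, which did not pass the test, and of CBX5, which differed most between the cell types, are shown 5' to 3' on the strand of the gene, with matches on either strand to short motifs in capitals. ZNF274 lies at chr19:58182811-58183110 (plus strand), SUV39H2 at chr10:14878616-14878915 (plus), CBX1 at chr17:48101137-48101436 (minus), CBX3 at chr7:26201193-26201492 (plus) and CBX5 at chr12:54280073-54280372 (minus), all in GRCh38.p14.
ZNF274: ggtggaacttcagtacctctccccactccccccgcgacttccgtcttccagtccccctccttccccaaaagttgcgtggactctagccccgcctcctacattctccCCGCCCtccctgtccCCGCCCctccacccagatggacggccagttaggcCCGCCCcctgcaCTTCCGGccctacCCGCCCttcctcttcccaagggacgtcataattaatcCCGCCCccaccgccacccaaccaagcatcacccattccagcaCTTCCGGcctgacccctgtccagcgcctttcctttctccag
SUV39H2: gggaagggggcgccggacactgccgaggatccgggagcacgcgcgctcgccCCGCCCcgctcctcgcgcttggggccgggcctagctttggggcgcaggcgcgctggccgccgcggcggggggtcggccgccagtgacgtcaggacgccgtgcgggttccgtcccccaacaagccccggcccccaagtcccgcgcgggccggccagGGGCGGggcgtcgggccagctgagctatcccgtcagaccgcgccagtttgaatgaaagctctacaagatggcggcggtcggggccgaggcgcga
CBX1: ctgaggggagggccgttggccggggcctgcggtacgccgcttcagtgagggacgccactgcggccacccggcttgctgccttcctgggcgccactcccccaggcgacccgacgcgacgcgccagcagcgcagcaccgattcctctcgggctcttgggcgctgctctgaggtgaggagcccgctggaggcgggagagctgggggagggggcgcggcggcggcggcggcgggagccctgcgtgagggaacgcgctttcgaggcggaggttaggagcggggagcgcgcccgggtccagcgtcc
CBX3: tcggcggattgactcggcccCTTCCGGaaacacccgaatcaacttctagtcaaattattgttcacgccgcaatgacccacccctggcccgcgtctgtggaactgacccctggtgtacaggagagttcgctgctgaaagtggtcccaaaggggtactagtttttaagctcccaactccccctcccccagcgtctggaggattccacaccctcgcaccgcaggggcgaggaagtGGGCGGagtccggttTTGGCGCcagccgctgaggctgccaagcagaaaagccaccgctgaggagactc
CBX5: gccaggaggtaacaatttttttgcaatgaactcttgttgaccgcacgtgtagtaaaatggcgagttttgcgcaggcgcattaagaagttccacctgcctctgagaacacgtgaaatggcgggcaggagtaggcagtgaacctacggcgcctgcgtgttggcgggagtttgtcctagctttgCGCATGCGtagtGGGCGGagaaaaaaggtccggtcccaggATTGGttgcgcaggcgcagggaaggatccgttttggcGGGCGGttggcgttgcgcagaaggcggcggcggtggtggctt
The motifs were CCGGAAG of ETS factors, CCAAT of NF-Y, the GC box GGGCGG, for E2F factors both TTGGCGC and the form TTCCCGC, and a core of the NRF1 motif, GCATGCG. This core reads nearly the same on both strands, so that matches at adjoining bases overlap, and no other motifs overlapped in the windows shown. The ZNF274 window held 5 GC boxes and 2 matches to CCGGAAG, which 10.3% of the 35116 promoters of the table hold. The CBX5 window held 2 GC boxes, 1 match to CCAAT and 2 overlapping matches to GCATGCG, held by 3.9% of all promoters. SETDB1 also held GCATGCG. CBX3 held 1 match to TTGGCGC, which 3.0% of promoters hold, beside 1 GC box and 1 match to CCGGAAG. SUV39H2 held 2 GC boxes, and CBX1 held none of these letters. A GC box was in 5 of the 8 windows and in 45.0% of all promoters, CCAAT in 2 of 8 and 34.6%, and TTCCCGC in 0 of 8 and 6.6%. The matches are described only, and no match says nothing about a factor.

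Per kb of exon, TRIM28 was the highest of the 10 genes and ZNF274 the lowest in WT cells of both types. In WT HEK293T cells TRIM28 was at 219 ± 25.7 CPM per kb (SD, n = 3), followed by CBX1 at 75.3 ± 5.64 and CBX3 at 71.1 ± 5.14, whose ranges overlapped. SUV39H2 at 19.3 ± 2.58 and SUV39H1 at 14.5 to 16.8 also overlapped, as did SETDB1 at 11.4 ± 0.308 and CBX5 at 10.2 ± 1.64. ATRX at 3.72 ± 0.345 and ATF7IP at 3.52 ± 0.495 could not be ordered either, and ZNF274 was at 1.84 ± 0.136. ZNF274 lay below each of the genes it is listed with here. In WT NPCs the order began alike, with TRIM28 at 167 ± 11.8 CPM per kb (SD, n = 2), CBX1 at 118 ± 7.35 and CBX3 at 62.8 ± 3.36. CBX5 came next there with 51.5 ± 4.04, above SUV39H2 with 23.5 ± 1.29 and ATF7IP with 12.2 ± 0.523. SETDB1 at 10.4 ± 0.801 and SUV39H1 at 9.88 ± 0.280 overlapped, and ATRX at 5.71 ± 0.610 and ZNF274 at 2.93 ± 0.177 closed the order. With the length of the longest transcript in place of all exons, CBX3 came to 162 CPM per kb in WT HEK293T cells and CBX1 to 94.7, so that the order of this pair depends on the length used. By that length SETDB1 at 18.9 also came above SUV39H1 at 17.4 in WT HEK293T cells, and ATRX at 11.6 above SUV39H1 at 10.7 in WT NPCs.

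**Figure D1:**
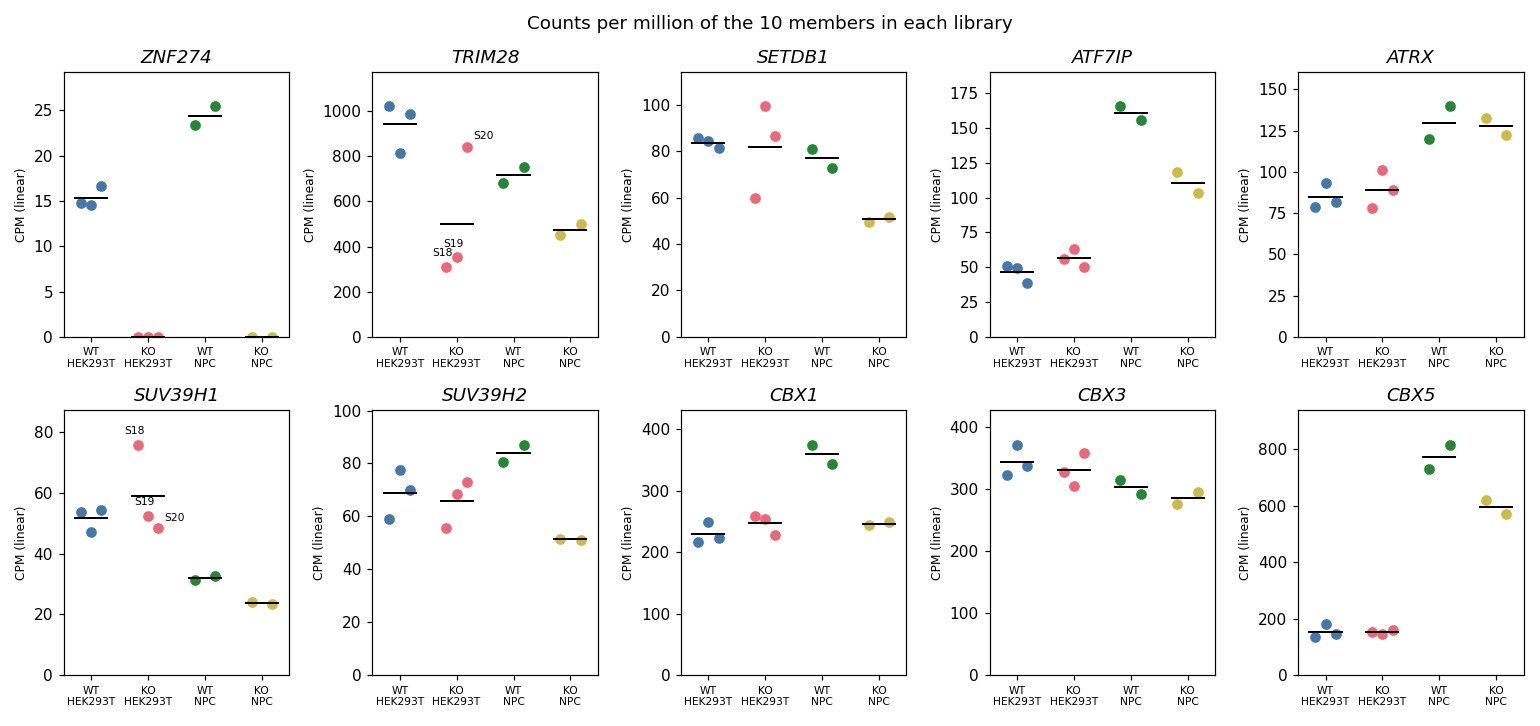
CPM (linear axis from 0) of each member in each library, one panel per gene, with a bar at the group mean. ZNF274 was at 0 in all 5 KO libraries, TRIM28 was at 311 and 352 CPM in KO HEK293T libraries S18 and S19 and at 843 in S20, and CBX5 was at 731 and 817 CPM in WT NPCs against 134 to 181 in WT HEK293T cells.

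ZNF274 itself was absent from the counts of every KO library. The gene lies at chr19:58694396-58724928 (hg19, plus strand), and its counts were 445, 423 and 492 in WT HEK293T libraries and 491 and 496 in WT NPC libraries. In KO libraries S18, S19, S20, S1 and S2 it had 0 counts. Against a floor of 3 counts per library, ZNF274 was at least 138-fold lower in KO HEK293T cells and at least 170-fold lower in KO NPCs (edgeR, adjusted p = 1.91e-05 and 6.33e-05). The floor covers counting error only. ZNF274 counts thus matched the labels of all 10 libraries.

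TRIM28, the corepressor that KRAB domains bind, was the member whose KO HEK293T libraries were least alike. The gene lies at chr19:59055431-59062089 (hg19, plus strand), 330.5 kb from ZNF274 toward the end of the long arm of the same chromosome. Its level in WT HEK293T libraries S15, S16 and S17 was 1021, 815 and 989 CPM. In KO libraries S18, S19 and S20 it was 311, 352 and 843 CPM. S18 and S19 thus lay below every WT library, with log2 ratios to the WT mean of -1.60 and -1.42, while S20 lay between the WT libraries at -0.16. Over all 3 KO libraries the log2 FC was -0.90 with a standard error of 0.31, which did not pass the test (edgeR, adjusted p = 0.537). Without S20 the log2 FC was -1.50 with an adjusted p of 0.00173, and without both S18 and S19 it was -0.15 with an adjusted p of 1. Among all alternatives, leaving out S20 was the only one that passed. The range of the others was 0.16 to 1.

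The genes on the same side of ZNF274 as TRIM28 were read in the same libraries. On this telomere side, 21 genes within 500 kb, TRIM28 itself among them, had a mean of at least 1 CPM. Their median ratio to the WT mean was 0.461 in S18 and 0.472 in S19, against 1.04 in S20 and 0.889 to 1.12 in the WT libraries. In S18, 19 of the 21 genes lay more than 0.5 below the WT mean on the log2 scale, in S19 18 did, and in S20 none of them did. CHMP2A, a gene of the ESCRT machinery beside TRIM28, was at 48.6 to 61.6 CPM in WT libraries, at 26.3 and 23.3 in S18 and S19, and at 77.5 in S20. UBE2M, which encodes the conjugating enzyme of NEDD8, was at 157 to 167 CPM in WT libraries, at 80.9 and 67.5 in S18 and S19, and at 169 in S20. For these genes S18 and S19 lay outside the range of the WT libraries and S20 did not lie below it.

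Along every chromosome except Y, runs of 21 neighbouring genes were read in the same way, a choice made after these values were seen. Of 12283 such runs, which overlap one another, the lowest median in S18 and the lowest in S19 were the same run. It held the 21 genes from ZNF544 to CENPBD2P, TRIM28 among them, at the end of chromosome 19. The lowest run in S20 lay on chromosome 9 at a ratio of 0.682. The rest of chromosome 19 had median ratios of 0.902, 0.927 and 0.875 in S18, S19 and S20. No run in S20 or in a WT library had a median under -1 on the log2 scale, and 5 runs did in S18 and 5 in S19. What sets these libraries apart at this place was not tested.

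On the centromere side of ZNF274 levels were higher in KO HEK293T libraries. The median ratio of 14 genes to the WT mean was 2.76 in S18, 1.87 in S19 and 1.28 in S20. All 18 genes tested there within 500 kb had a log2 FC above 0 in KO HEK293T cells, with a median of 1.78, and 6 rose past the FC of 2 (0.478% of 19018 genes tested did). The median was 1.02 without S18, and 0.70 with 2 calls without both S18 and S19. ZSCAN18, a SCAN domain zinc finger gene 64.6 kb away, was at 1.35 to 3.49 CPM in WT libraries and at 59.1, 37.3 and 29.3 in S18, S19 and S20 (log2 FC 4.24 ± 0.376, standard error, adjusted p = 0.000328). ZNF329, the nearest tested gene on that side at 27.9 kb, was at 2.69 to 4.29 CPM in WT and at 46.5, 36.3 and 24.4 in KO libraries (log2 FC 3.31 ± 0.278, adjusted p = 0.000201). ZNF606, ZNF256 and ENSG00000176593 rose as well, by a log2 FC of 2.73, 2.11 and 3.48. On the telomere side 24 of 29 tested genes, TRIM28 among them, had a log2 FC below 0. The median was -0.60 and 0 passed, while 5 passed as lower without S20. Without S18 and S19 the median on that side was 0.067. ZNF544, the nearest tested gene on the telomere side, had 0 counts in S18 and 875 and 569 in S19 and S20, against 66 to 214 in WT libraries. The KO libraries thus also differed from each other right beside the deleted gene.

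**Figure D2:**
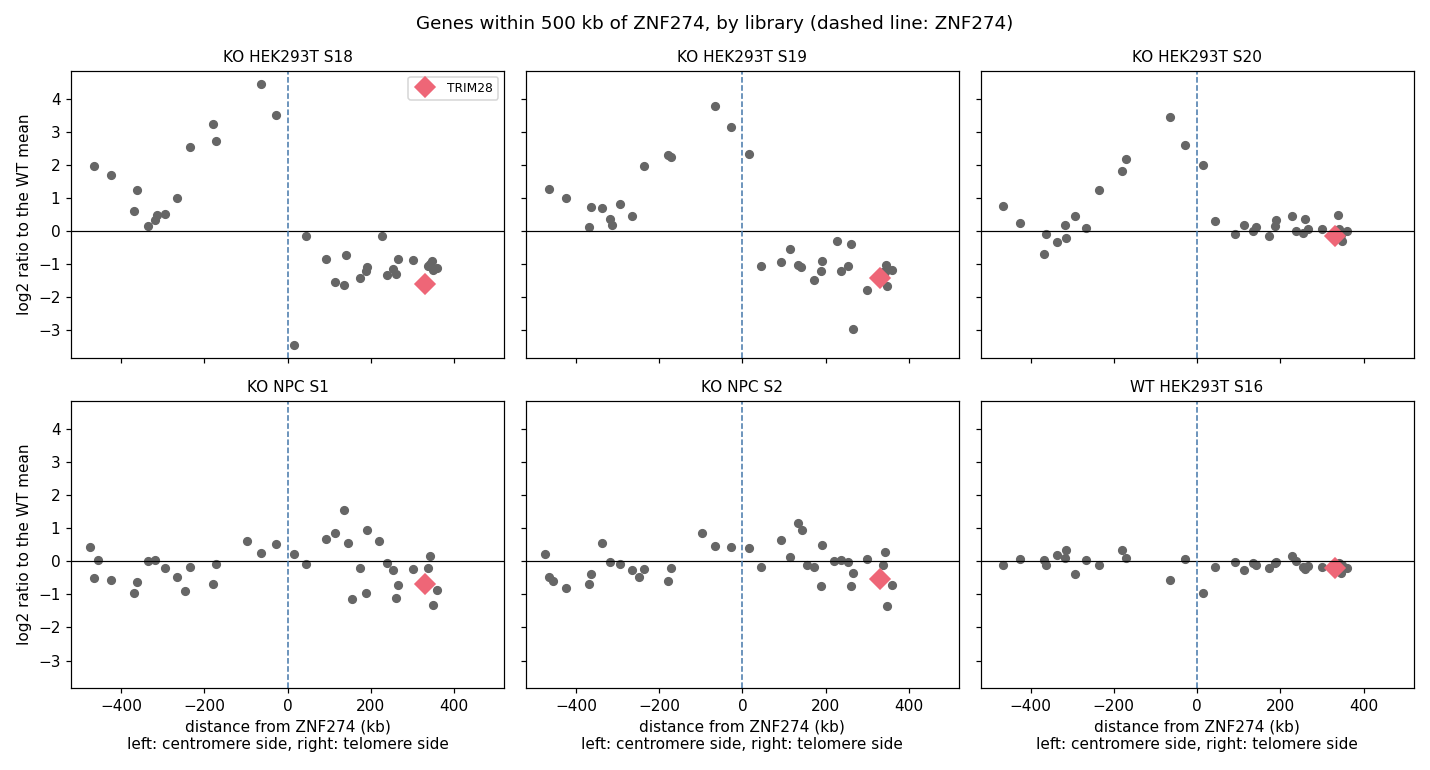
Each point is a gene with a mean of at least 1 CPM within 500 kb of ZNF274. The horizontal axis is its distance from ZNF274 in kb (centromere side to the left, telomere side to the right) and the vertical axis its log2 ratio to the WT mean in 1 library, for the 5 KO libraries and 1 WT library. Right of the dashed line most points of S18 and S19 lie near -1, TRIM28 (diamond) among them at -1.60 and -1.42, while those of S20 lie near 0.

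In NPCs the sides of ZNF274 did not differ in this way. The telomere side, with 21 genes at a mean of at least 1 CPM, had median ratios to the WT mean of 0.871 in S1 and 0.986 in S2, and the centromere side ratios of 0.896 and 0.854. ZNF329 was at 19.4 and 18.5 CPM in WT and at 27.5 and 25.8 in KO NPCs (log2 FC 0.48 ± 0.154, adjusted p = 0.0569), and ZSCAN18 at 27.8 and 27.7 against 33.2 and 38.1. Runs of 21 genes with a median under -1 were found in KO NPCs too, 9 in S1 and 2 in S2, and the lowest was on chromosome 22 in both, at a ratio of 0.433 in S1. Of 52 genes tested within 500 kb in NPCs, 1 passed the FC of 2 as higher and 3 as lower (8.45% and 8.36% of all genes tested did), among them MZF1 at a log2 FC of -1.58 and A1BG-AS1 at 1.53, an antisense gene whose reads may include those of A1BG, since the strand setting of the counting is not given in the sources used here. The nearest tested gene on the telomere side there, the pseudogene RPS15AP36, had a mean of 0.148 CPM in WT NPCs and 0 in KO NPCs and did not pass.

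TRIM28 fell in KO NPCs, in both libraries. It was at 682 and 754 CPM in WT libraries S3 and S5 and at 450 and 498 in KO libraries S1 and S2, with no overlap. The log2 FC was -0.61 ± 0.108 (standard error, adjusted p = 0.0062), which is 1.53 times lower. In a single fit of all 10 libraries, whose shared spread includes S18, S19 and S20, the adjusted p was 0.245. Of its close relatives, the TIF1 genes, TRIM24 fell in KO NPCs from 193 and 334 CPM to 113 and 116 (log2 FC -1.22 ± 0.236, adjusted p = 0.00904), and TRIM33 fell with a log2 FC of -0.39. TRIM66 did not pass.

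SETDB1, the H3K9 methyltransferase that TRIM28 brings to DNA (chr1:150898739-150937220, plus strand), fell in KO NPCs and did not pass the test in HEK293T cells. It was at 81.2 and 72.8 CPM in WT NPCs and at 49.7 and 51.9 in KO NPCs (log2 FC -0.61 ± 0.118, adjusted p = 0.00877). In HEK293T cells it was at 85.7, 84.4 and 81.3 CPM in WT and at 60.1, 99.4 and 86.8 in KO libraries, on both sides of the WT libraries (log2 FC -0.025 ± 0.179). ATF7IP, its partner (chr12:14518610-14655865, plus strand), was at 165 and 156 CPM in WT NPCs and at 118 and 103 in KO NPCs (log2 FC -0.55 ± 0.117, adjusted p = 0.0129). In HEK293T cells ATF7IP was at 50.7, 49.1 and 38.7 CPM in WT and at 55.7, 63.2 and 50.2 in KO libraries, with a log2 FC of 0.29 ± 0.160 that did not pass (adjusted p = 0.763). ATRX (chrX:76760358-77041719, minus strand) overlapped between WT and KO in both cell types. It was at 120 and 140 CPM in WT NPCs and 133 and 122 in KO NPCs, and the interval of 2 standard errors about its log2 FC ran from -0.28 to 0.20 there and from -0.21 to 0.38 in HEK293T cells.

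Of the genes of the SUV39H enzymes, which write H3K9me3 at pericentromeres, SUV39H2 fell in KO NPCs. SUV39H2 (chr10:14920819-14946314, plus strand) was at 80.6 and 87.1 CPM in WT NPCs and at 51.4 and 51.2 in KO NPCs, the largest change of the 9 genes there (log2 FC -0.72 ± 0.113, adjusted p = 0.00383). SUV39H1 (chrX:48553945-48567407, plus strand) was at 31.3 and 32.6 CPM in WT and 24.1 and 23.3 in KO NPCs. Its KO libraries lay below both WT libraries, but it missed the threshold (log2 FC -0.45 ± 0.142, adjusted p = 0.0545). It passed as lower in 3 of 7 other settings with all NPC libraries, which were voom, library size alone and another filter on low counts. In HEK293T cells SUV39H1 was at 53.8, 47.1 and 54.3 CPM in WT libraries and at 75.9, 52.5 and 48.3 in S18, S19 and S20, so that S18 alone lay above the WT range. Its log2 FC was 0.19 ± 0.183 and did not pass. SUV39H2 was at 59.2, 77.5 and 69.9 CPM in WT and at 55.5, 68.4 and 72.9 in KO HEK293T libraries, which overlapped.

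Of the summed CPM per kb of this pair, SUV39H1 made up 45.5 ± 5.02% in WT HEK293T cells (SD, n = 3) and 49.4 ± 9.46% in KO HEK293T cells, an exact permutation p of 0.7 over libraries, where 3 against 3 allow no p below 0.10. It made up 60.1% in S18, 45.8% in S19 and 42.2% in S20. In NPCs the share was lower, 30.0 and 29.2% in WT and 34.0 and 33.5% in KO libraries. The sum of the pair was 32.3 and 34.5 CPM per kb in WT NPCs and 21.9 and 21.6 in KO NPCs, while in HEK293T cells it was 33.2 to 36.4 in WT and 35.4 to 39.0 in KO libraries.

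Among the HP1 genes, whose proteins read H3K9me3, CBX1 and CBX5 fell in KO NPCs and CBX3 did not pass. CBX1 (HP1-beta, chr17:46147414-46178840, minus strand) was at 375 and 343 CPM in WT NPCs and at 244 and 248 in KO NPCs (log2 FC -0.56 ± 0.102, adjusted p = 0.00702). CBX5 (HP1-alpha, chr12:54624726-54673917, minus strand) was at 731 and 817 CPM in WT and at 622 and 571 in KO NPCs (log2 FC -0.39 ± 0.110, adjusted p = 0.0374). CBX3 (HP1-gamma, chr7:26240782-26253227, plus strand) was at 315 and 292 CPM in WT and 276 and 295 in KO NPCs, which overlapped, and its interval of 2 standard errors ran from -0.31 to 0.099. In HEK293T cells CBX1 was at 216.8, 248.9 and 222.2 CPM in WT and 259, 254 and 228 in KO libraries, CBX3 at 323 to 372 and 305 to 358, and CBX5 at 134 to 181 and 145 to 160. None of the 3 passed there, with intervals of 2 standard errors from -0.14 to 0.36 for CBX1, from -0.30 to 0.19 for CBX3 and from -0.29 to 0.28 for CBX5.

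In the makeup of HP1, CBX5 took a larger share in NPCs than in HEK293T cells. It made up 6.07 to 7.06% of the summed CPM per kb of the 3 HP1 genes in WT HEK293T cells and 6.15 to 6.68% in KO HEK293T cells, against 20.5 and 23.9% in WT NPCs and 23.1 and 21.0% in KO NPCs. CBX3 made up 45.0 to 45.8% in WT HEK293T cells and 26.6 to 27.5% in WT NPCs. Within NPCs the share of CBX3 was 31.9 and 33.8% in KO libraries and that of CBX1 45.0 and 45.2%, against 49.6 and 52.0% in WT libraries, a difference in shares that was not tested. In KO HEK293T cells the share of CBX1 was 52.3% in S18, 53.5% in S19 and 46.9% in S20, against 47.9 to 48.5% in WT (exact permutation p = 0.4). With the longest transcripts as lengths CBX3 made up 60.0% in WT HEK293T cells and 39.9% in WT NPCs, and CBX5 4.91% and 18.8%, so that the shares depend on the length and the difference of CBX5 between the cell types stays.

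**Figure D3:**
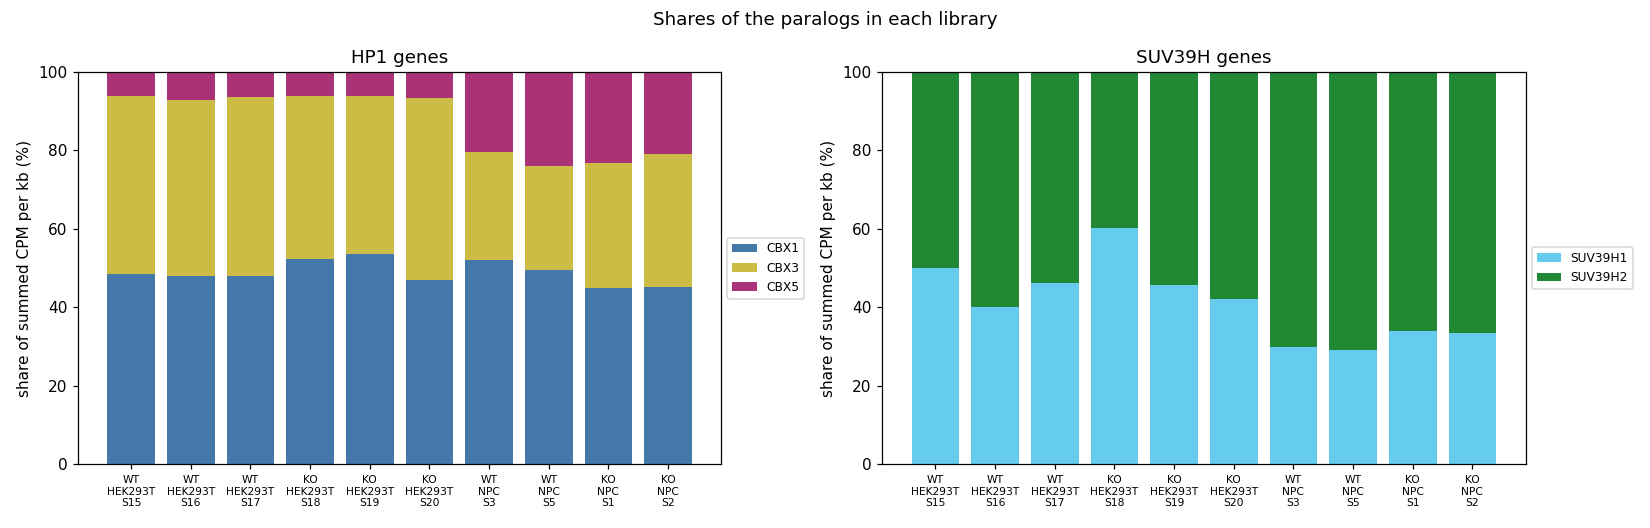
Stacked bars give the share of each paralog in the summed CPM per kb of the HP1 genes (left) and the SUV39H genes (right) in every library. CBX5 takes 6.07 to 7.06% in HEK293T libraries of both genotypes and 20.5 to 23.9% in NPC libraries, and SUV39H1 takes the largest share in S18, at 60.1%.

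Counted together, the 9 genes besides ZNF274 did not pass in HEK293T cells and fell in part in NPCs. In HEK293T cells 0 of 9 passed in either direction with edgeR, DESeq2 or voom. An unadjusted p below 0.05 was found for 1 of them and for 1354 of all 19018 genes tested. Their median log2 FC was -0.0055 against 0.011 over all genes. Among all 19018 genes tested there, 0.0105% passed as lower with an FC above 2. WT and KO libraries overlapped for all 9 genes, while every KO library lay above every WT library for 7.07% of genes and below for 5.5%. In NPCs 0 of 9 passed the FC of 2, which 8.36% of the 20577 genes tested did as lower and 8.45% as higher. At an adjusted p below 0.05 and any FC, 6 of 9 were lower and 0 higher, against 13.7% of all genes lower and 15% higher. The 6 were TRIM28, SETDB1, ATF7IP, SUV39H2, CBX1 and CBX5, and the median of the 9 was -0.55 against -0.022 over all genes. Both KO libraries lay below both WT libraries for 7 of the 9, which 33.2% of all genes tested did. Each fit without 1 of the NPC libraries leaves 1 library in a group, and not every call held in these fits. The log2 FC of TRIM28 ranged from -0.69 to -0.55 and that of SUV39H2 from -0.78 to -0.67 over them. In the fit of all 10 libraries 4 passed, without TRIM28 and CBX5 (adjusted p = 0.0942 for CBX5). Of all 19255 genes in that fit, 5009 passed in either direction.

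**Figure D4:**
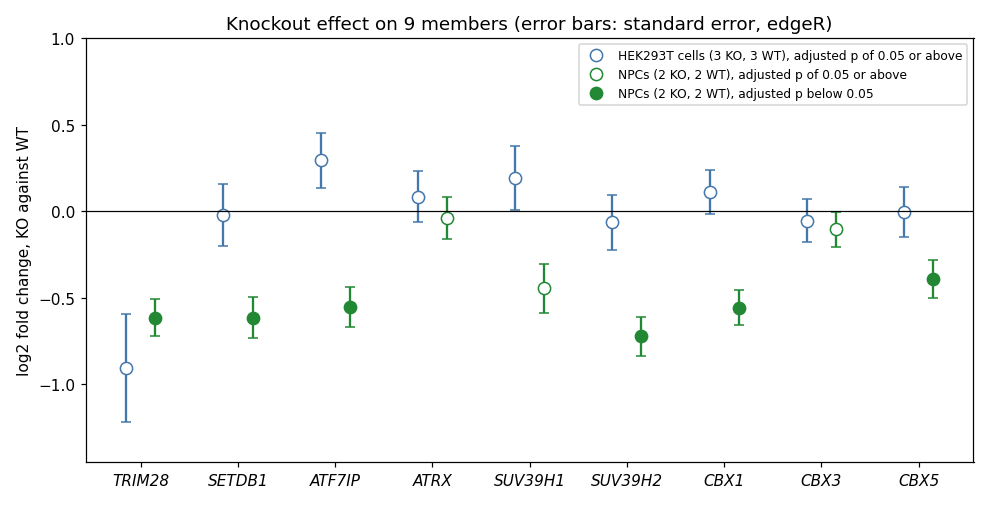
Points give the log2 FC of KO against WT for the 9 genes besides ZNF274 and bars the standard error from edgeR, in HEK293T cells (blue) and NPCs (green). Filled points have an adjusted p below 0.05. In NPCs 6 of 9 are filled, all below 0, and TRIM28 at -0.90 has the widest bar of the HEK293T cells.

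In the same KO NPC libraries genes of DNA replication and mitosis were lower too. Of 17 such genes 15 passed as lower and 0 as higher at any FC, against 13.7% and 15% of all genes tested, with a median log2 FC of -0.67. TOP2A, the topoisomerase of mitotic chromosomes, went from 809 and 908 CPM to 404 and 425 (log2 FC -1.07 ± 0.106, adjusted p = 0.000616). BUB1, a kinase of the spindle checkpoint, had a log2 FC of -1.15 ± 0.151. The summed level of the 17 genes was 5208 and 5275 CPM in WT NPCs and 3163 to 3420 in KO NPCs, while it was 5195 to 5415 in WT and 4894 to 5241 in KO HEK293T cells. The markers moved in these libraries as well, with 7 of 10 neural progenitor markers lower and 5 of 10 mesenchymal markers higher at any FC. The part of these values in the levels of the members was not tested.

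Genes that work with the members were taken from lists. Together they held 65 tested genes besides the members, of which 6 were higher and 20 lower in KO NPCs at an adjusted p below 0.05, with a median log2 FC of -0.15 against -0.022 over all genes. Of all genes tested 15% were higher and 13.7% lower by this rule, which is the background for each list below. In HEK293T cells 0 of the 65 passed with edgeR, DESeq2 or voom. There 3 had an unadjusted p below 0.05, as did 1354 of all 19018 genes tested. Of 6 other genes of H3K9 methylation, EHMT2, which encodes the G9a enzyme, fell in KO NPCs (log2 FC -0.91 ± 0.104, adjusted p = 0.0011), while PRDM2 and SETDB2 rose by 0.60 and 0.61. Of 4 genes of the HUSH complex and its effector, which silence transposons with SETDB1, MPHOSPH8 rose by a log2 FC of 0.51 and TASOR fell with -0.37. Of 14 NuRD genes, a complex of histone deacetylases and a nucleosome remodeller that TRIM28 also binds, 2 were higher and 4 lower. MBD2 rose from 30.4 and 37.2 CPM to 72.1 and 86.6 (log2 FC 1.22 ± 0.158), HDAC1 rose by 0.67, and MTA1 fell from 82.9 and 85.3 CPM to 37.6 and 45.0 (log2 FC -1.04 ± 0.130).

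Of 10 H3K9 demethylases, 0 were higher in KO NPCs and 2 were lower, near the 13.7% of all genes. They were KDM3A with a log2 FC of -0.59 and KDM3B with -0.58. Both act on mono- and dimethylated lysine 9, and the KDM4 genes, which act on H3K9me3, did not pass. Of 8 genes of histone H3.3 and its chaperones, H3-3A fell with -0.75, ASF1A with -0.67 and CABIN1 with -0.55, while DAXX was at 0.32 and did not pass. Of 7 tested genes of chromatin upkeep at replication, HELLS, a remodeller needed for DNA methylation, fell from 56.0 and 59.7 CPM to 25.4 and 29.6 (log2 FC -1.09 ± 0.138), and CHAF1B and ASF1B fell with -0.59 and -0.48. Of 12 genes of SUMO conjugation, a modification by which TRIM28 binds SETDB1, SUMO2 and SUMO3 fell with log2 FC of -0.38 and -0.46, and PIAS3 rose by 0.50. ZNF24, a zinc finger protein with a SCAN domain like that of ZNF274, fell with -0.33 (adjusted p = 0.0484).

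**Figure D5:**
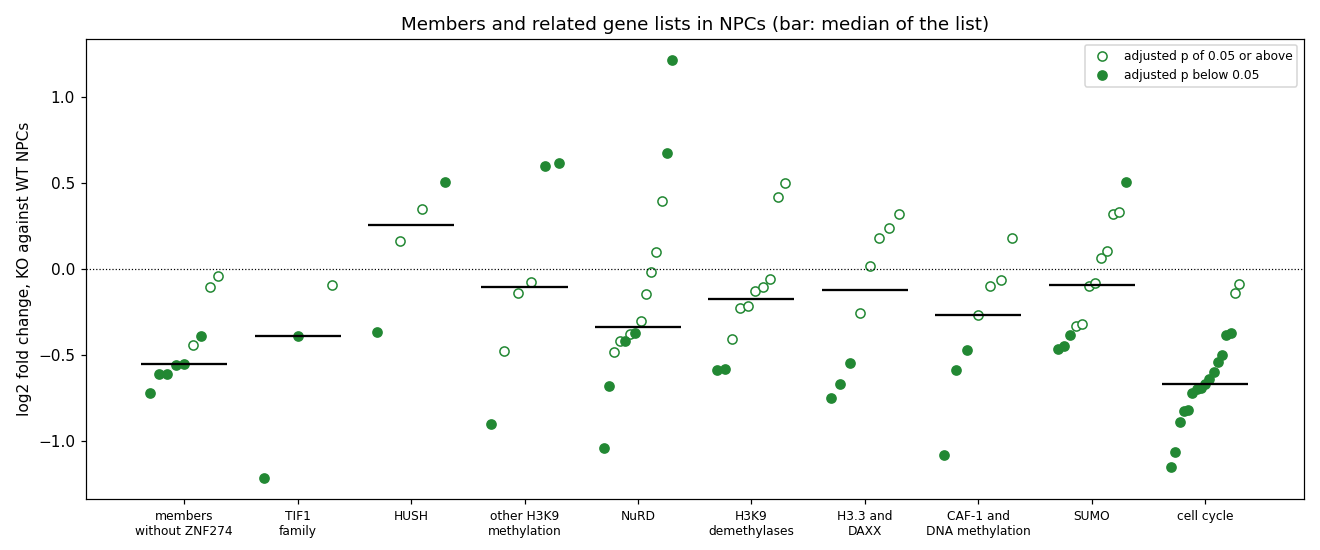
Each point is the log2 FC of a gene in KO against WT NPCs, by list, with a bar at the median of the list. Filled points have an adjusted p below 0.05. Of the lists drawn the cell cycle list has the lowest median, -0.67, the members besides ZNF274 have a median of -0.55, the 3 TIF1 genes lie below 0, and the other lists hold genes on both sides of 0.

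The effect of the KO was then compared between the cell types as an interaction over all 10 libraries. At an adjusted p below 0.05 and any FC, 2 of the 9 genes differed, both with a lower effect in NPCs, against 7.34% of 19255 genes with a lower and 7.74% with a higher effect. For ATF7IP the difference was -0.83 ± 0.222 on the log2 scale (standard error, edgeR, adjusted p = 0.0258), from 0.29 in HEK293T cells and -0.55 in NPCs. For CBX1 it was -0.65 ± 0.171 (adjusted p = 0.0231). SUV39H2 had a difference of -0.64 ± 0.225 (adjusted p = 0.0749), and SETDB1 and SUV39H1 had differences of -0.57 and -0.62 with adjusted p of 0.162 and 0.145. TRIM28 had a difference of 0.31 ± 0.459, which was -0.47 without S18 and S19 and 0.91 without S20, where it passed with an adjusted p of 0.0132. Without S18 and S19 the adjusted p was 0.0822 for ATF7IP and 0.0534 for CBX1, while SETDB1 and SUV39H2 passed. Leaving out S17, S3, S1 or S2 alone also ended both calls, and leaving out S15 ended that of CBX1. For ZNF274, at 0 in all KO libraries, the difference could not be fitted.

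WT NPCs and WT HEK293T cells were compared last, in the fit of all 10 libraries. Cell type, culture and the table of counts change together here and cannot be told apart. The median log2 FC of all genes was 0.13 here, 0.066 to 0.21 over the alternatives, and the values below stand beside it. At any FC 5 of the 10 genes were higher in NPCs and 1 lower, against 31.4% and 25.4% of 19255 genes, and CBX5 and ATF7IP passed the FC of 2, which 25.2% of genes did as higher. CBX5 was 5.04 times higher (log2 FC 2.33 ± 0.141, adjusted p = 6.11e-08) and ATF7IP 3.48 times (1.80 ± 0.155, adjusted p = 1.17e-06). CBX1, ATRX and ZNF274 were higher by a log2 FC of 0.65, 0.62 and 0.67, with an adjusted p of 0.0281 for ZNF274, and SUV39H1 was lower with -0.70 (adjusted p = 0.00785). ZNF274 passed in 5 of 10 fits that left out 1 library, and SUV39H1 lost its call without S3. TRIM28, SETDB1, SUV39H2 and CBX3 did not pass, with log2 FC of -0.39, -0.12, 0.28 and -0.18. For TRIM28 the standard error was 0.33, since the fit shares the spread of the KO HEK293T libraries, and its interval of 2 standard errors ran from -1.04 to 0.26. Without S20 TRIM28 passed as lower, with an adjusted p of 0.0293. Of the 65 listed partners, 2 were higher and 10 lower past the FC of 2, against 25.2% and 15.5% of all genes. At any FC 12 were higher and 23 lower, against 31.4% and 25.4%. Among them HDAC1 was at 294 to 310 CPM in WT HEK293T cells and at 65.5 and 66.7 in WT NPCs, a log2 FC of -2.18. RBBP7, KDM7A and CDCA7 were lower as well with -1.77, -2.32 and -1.71, while PRDM2 was higher by 1.16.

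Across the 10 libraries, 13951 genes with a mean of at least 1 CPM were ranked by Pearson's r of log2(CPM + 0.5) with ZNF274 and with TRIM28. The 10 points share their groups, so that a gene low in both KO groups scores high with ZNF274, and the values are a description. The 5 genes most like ZNF274 were WDR62 (r = 0.956), XRCC1 (0.937), ZBTB9 (0.899), EEF1A1 (0.894) and XAB2 (0.890). WDR62 was at 38.4 to 40.0 CPM in WT and 27.1 to 30.8 in KO HEK293T cells and at 44.1 to 45.0 in WT and 31.0 to 31.5 in KO NPCs. Among the genes most like TRIM28 were HNRNPLP2 (r = 0.927), PCIF1 (0.922), NOP53 (0.901) and HNRNPL (0.898). HNRNPLP2 is a pseudogene of HNRNPL, so that its count may hold reads of that gene. NOP53 and HNRNPL lie on the chromosome of TRIM28, and PCIF1 on chromosome 20 was at 25.5 to 31.5 CPM in WT and 16.7 to 28.1 in KO HEK293T cells.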

How the data were processed

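RNA was sequenced from stranded mRNA libraries. Per the labels and the study's methods, the authors mapped reads to hg19 with HISAT2 and counted them on genes and transposable elements with featureCounts, keeping reads with 1 mapped place, so that genes with near-identical copies such as CBX3, H3-3A and EEF1A1 may be counted low. The deposited values are raw counts per gene, without normalization. Symbols, coordinates and exon lengths came from the GENCODE annotation lifted to GRCh37, in which 22030 of 22750 and 20366 of 20965 identifiers were found. Libraries of a group differed by more than sampling noise.

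Genes with a total count of at least the number of libraries were tested by the quasi-likelihood test of edgeR 4.0.16 in R 4.3.3, after TMM scaling, with Benjamini-Hochberg adjustment over all of them. A call needed an FC above 2 with an adjusted p under 0.05, or that p alone where any FC is stated. Standard errors were calculated back from the test statistic. The tests were checked on simulated counts with 200 changed genes. These were picked above a minimum mean count, changed by an FC well above 2, and scored by the rule with an FC above 2. Of these, 192 were recovered in the HEK293T design among 19018 genes and 168 in the NPC design among 20577. For the difference between cell types 152 were recovered, and between the WT cells 176, both among 19255 genes. False calls were 13 of 205, 11 of 179, 3 of 155 and 3 of 179 calls, in the same order. The check does not cover smaller changes called at any FC, since it simulated and scored none. Alternatives were DESeq2 1.42.0, voom in limma 3.58.1, other scalings, filters, lengths and windows, and leaving out libraries. Per-library ratios around ZNF274 and the joint removal of S18 and S19 were added after the data were seen. The members and lists were chosen with earlier results of these data known. Named genes were the 10 members, up to 3 called genes per list, up to 5 called neighbours with the nearest on each side, and 5 genes by likeness. Listed genes named without passing an FC of 2 were picked after their values were seen. UHRF1 and LHX1 were not analysed here. Some genes that these rules name are not reported here.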

Additional observations from a re-analysis of the deposited data

Results flagged for a closer look

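The effect of the ZNF274 KO differed between the cell types for 2 members, by the interaction term in edgeR. For ATF7IP the KO effect in NPCs minus that in HEK293T cells was -0.83 on the log2 scale (adjusted p = 0.0258, 0.00503 to 0.126 over the alternatives). The KO libraries were lower than the WT libraries in 2 of 2 NPC libraries and above the WT mean in 3 of 3 HEK293T libraries, where WT and KO overlapped. For CBX1 the difference was -0.65 (adjusted p = 0.0231, 0.00172 to 0.102), with 2 of 2 KO NPC libraries below WT. Both calls were lost without S17, S3, S1 or S2, and without S18 and S19 together.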

How the results depend on the processing

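ZNF274 passed in both KO comparisons under every alternative. Of the count of members called with an FC above 2, ZNF274 included, the main values were 1 in HEK293T cells, 1 in NPCs, 0 for the difference between cell types and 2 between the WT cells. Without an FC threshold they were 1, 7, 2 and 6. With library size alone and an FC above 2, the difference between cell types had 1. Each library left out in turn gave 1 to 2 in HEK293T cells. At any FC, members besides ZNF274 ranged from 0 to 1 in HEK293T cells and from 0 to 4 for the difference, each with 1 HEK293T library left out. Library size alone gave 4 for the difference. In NPCs such a fit leaves 1 library in a group, and not every call held there. The call added in HEK293T cells was TRIM28, without S20. Of the genes within 500 kb of ZNF274, 6 were called in HEK293T cells and 4 in NPCs. With 1 library left out these ranged from 3 to 12 (lowest without S15, highest without S20) and from 0 to 6 (lowest without S1), with S18 and S19 left out there were 2, and library size alone gave 7 in NPCs. Members that never passed in HEK293T cells turned direction under some settings. With library size alone, SETDB1 was at 0.056, SUV39H2 at 0.020, CBX3 at 0.032 and CBX5 at 0.082, and CBX5 was at 0.004 with voom. Without S18 and S19, SETDB1 was at 0.058, SUV39H1 at -0.091, SUV39H2 at 0.091, CBX1 at -0.0021, CBX3 at 0.064 and CBX5 at 0.071, and the difference between cell types for TRIM28 was -0.47. With 1 library left out the log2 FC in HEK293T cells ranged from -0.18 to 0.15 for SETDB1, -0.0033 to 0.17 for ATRX, -0.036 to 0.32 for SUV39H1, -0.16 to 0.041 for SUV39H2, -0.11 to 0.0079 for CBX3 and -0.091 to 0.13 for CBX5. In NPCs ATRX ranged from -0.15 to 0.066, and the difference for CBX3 from -0.12 to 0.032. The cause of these changes was not tested. Where a group was left with 1 library, it was taken to vary like the others. Library size alone moved the median log2 FC of all genes to 0.098 in HEK293T cells, -0.13 in NPCs and -0.24 for the difference. No paired analysis was possible because the labels give the groups no replicate number in common. With the longest transcript as the length levels per kb were higher for all 10 genes, and the order changed for CBX1 and CBX3 and for SETDB1 and SUV39H1 in WT HEK293T cells, and for ATRX and SUV39H1 in WT NPCs.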
